A study of Drosophila melanogaster with 15 samples.

Results

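Contractile protein genes of muscle were followed in Drosophila melanogaster at the third larval instar, after injection of bacteria or buffer, in wild type and in mutants of the NF-kappaB factors Relish, Dif and dorsal. The set was defined by gene symbol and held 10 genes: Mhc, Mlc1, Mlc2, Act57B, Act79B, up, wupA, Tm2, Mf and Zasp52. Every probe set whose platform annotation gives 1 of these symbols alone was taken, which gave 10 of the 14010 probe sets of the array and covered 7 of the 10 genes. These were Mlc1 (CG5596), Mlc2 (CG2184), Act79B (CG7478), up (CG7107, 2 probe sets), Tm2 (CG4843), Mf (CG6803) and Zasp52 (CG30084, 3 probe sets). Mhc, Act57B and wupA were not analysed here, and no probe set with several symbols held a member. All 10 probe sets were among the 11427 bright enough to be tested, with a signal of at least 160 on at least 3 arrays.

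The muscles of a larval body wall are built of sarcomeres, in which thick filaments of myosin slide along thin filaments of actin. Myosin carries an essential and a regulatory light chain, while tropomyosin and the troponin complex lie on the thin filament and make contraction depend on calcium. Thin filaments are anchored at the Z-disc, where PDZ and LIM domain proteins such as Zasp52 bind alpha-actinin, and in insects thick filaments also contain proteins such as myofilin.

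The arrays measured RNA of whole larvae in 5 groups of 3 arrays, each array from a pool of 20 animals that had been injected with about 0.1 microliter 2 h before. Wild type larvae received phosphate buffered saline (PBS) or Escherichia coli, the Gram-negative bacterium. Larvae with the alleles Relish E20, Dif 1 or dorsal 1 received E. coli by their treatment text, but the letters ctr stand in the titles of all 9, as they do for wild type with PBS, where wild type with E. coli has inj. The Imd pathway signals through Relish, and the Toll pathway through Dif and dorsal. The wild type arrays name no mutation in their own labels, and their genotype comes from the series design. PBS-injected mutants were not analysed here, so an effect of a mutation on the response to bacteria and a standing difference between stocks cannot be told apart. In whole larvae, fewer muscle cells and less RNA per muscle cell cannot be told apart either.

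Some facts of the whole set of arrays bear on the results. The authors' signals were scaled to the same trimmed mean, between 800.2 and 800.25, and the median signal of the tested probe sets lay between 338.4 and 457.4. Arrays of the same group correlated at 0.881 to 0.94 over the tested probe sets. Replicates 2 and 3 of either wild type group share a number in their titles, as do dorsal replicates 1 and 2. Whether the pools were raised separately is not stated, so the spread that the p-values rest on may be partly technical. The Rel transcript read 11.4 to 27.4 signal units on the Relish mutant arrays and 3095 to 4981 on the wild type E. coli arrays. With PBS in wild type it read 664 to 807, on the Dif mutant arrays 1091.5 to 1273 and on the dorsal mutant arrays 373.5 to 1306.5. Rel on the Dif and dorsal arrays was thus below every wild type E. coli array, and whether this bears on their treatment was not tested. The Dif transcript read 204 to 214 on the Dif mutant arrays against 246 to 338 in wild type with E. coli, and the dl transcript read 180 to 414 on the dorsal mutant arrays against 312 to 723, so these signals do not check the labels of the Dif and dorsal arrays.

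The muscle genes were among the bright features of the array. Ranked by mean log2 signal over the 15 arrays among the 11427 tested probe sets, Mlc2 stood at the 100th percentile, Mlc1 at 99.4, the brighter probe set of up at 98.1, Tm2 at 98.0, Mf at 97.5 and Act79B at 96.9. The 3 probe sets of Zasp52 stood at 89.4, 88.7 and 85.5. The second probe set of up was the exception, at 42.1, with a mean signal of 336 where the first had 21263. The median of the members' within-group standard deviations was 0.29 on the log2 scale, and that of all tested probe sets was 0.48. These sets were not matched for brightness, and the second probe set of up had 0.565. The median range of the members' 5 group means was 0.91, beside 0.83 over all tested probe sets.

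Differences are given as log2(signal + 80), with the standard error (SE) of the fit, and a probe set is called where the adjusted p is under 0.05. Calls among the members fell on Mf, up, Zasp52 and Act79B, and none of the 10 comparisons called Mlc1, Mlc2 or Tm2. Mf was lower in the Relish and Dif mutants than in either wild type group. The bright probe set of up and 1 of the 3 of Zasp52 were lower in the dorsal mutant than in wild type with E. coli, and the weak probe set of up was higher in the Relish mutant. Act79B and 2 probe sets of Zasp52 were higher in the Dif than in the dorsal mutant. Bacteria changed no member past the threshold in wild type. When arrays with the same title number were averaged into 1, no member was called in any comparison. Of the dorsal arrays, the pair that shares a number correlated at 0.932 and the other pairs at 0.884 and 0.881, and whether such pairs are separate replicates is not stated. For all 10 probe sets, groups next to each other in the order of their means were not called different.

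**Figure D1:**
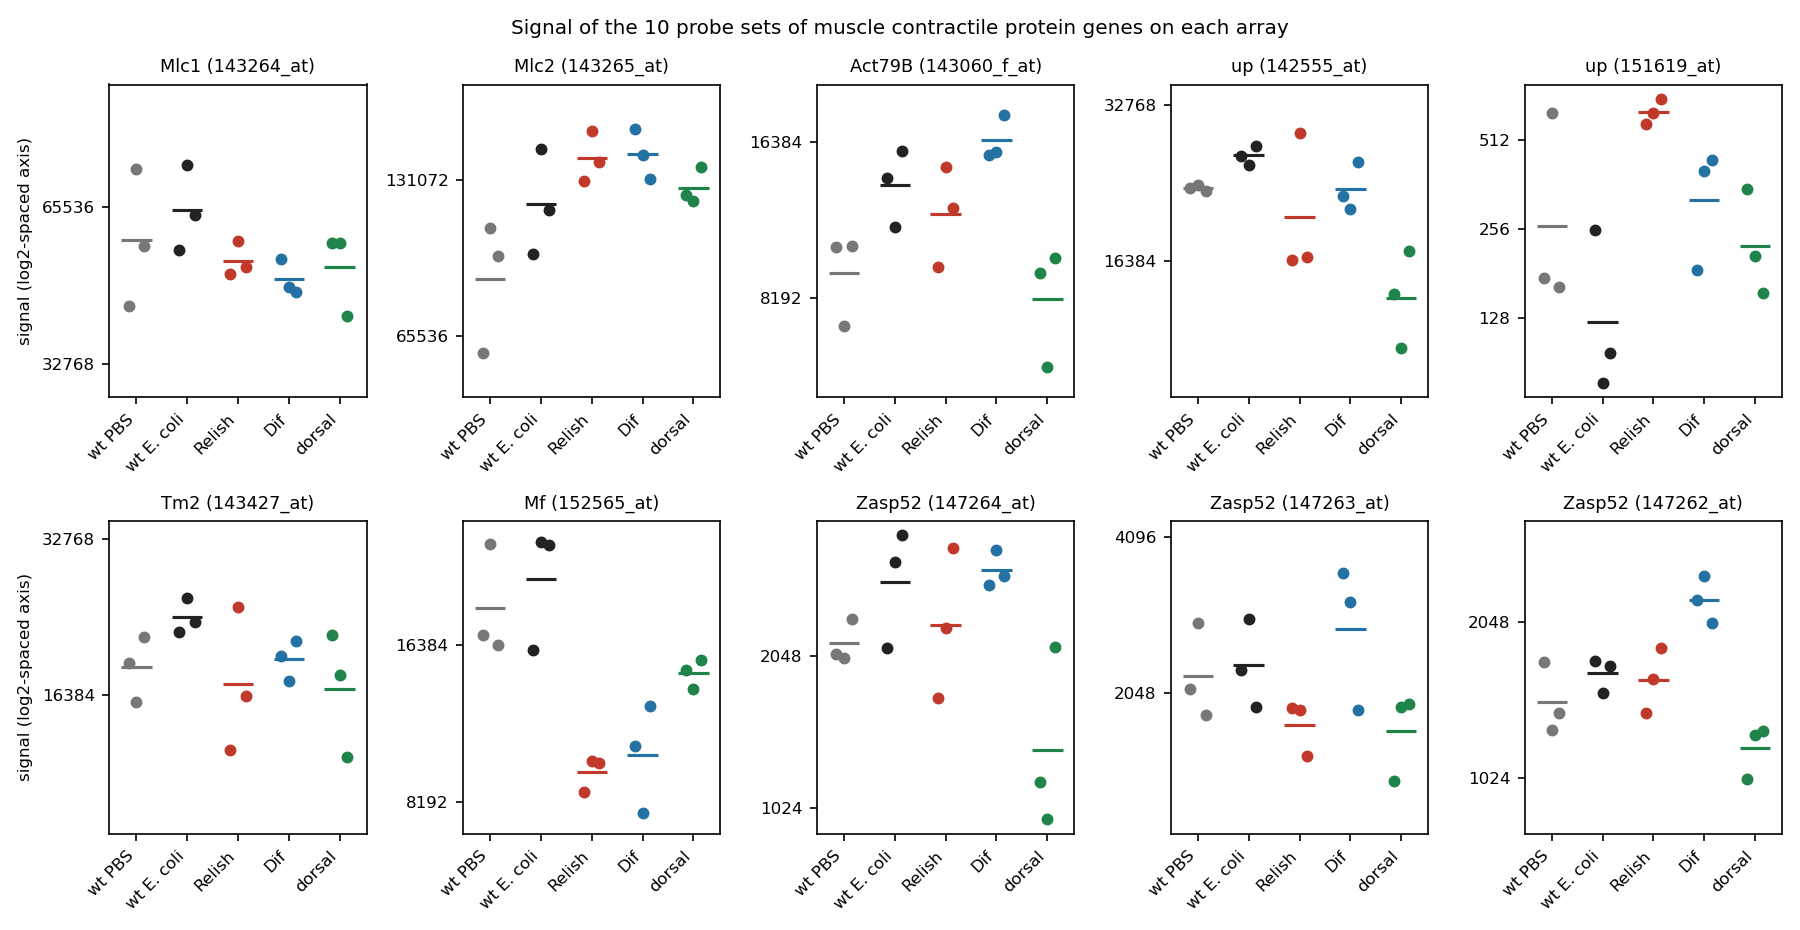
Signal of each member probe set on the 15 arrays, with 1 panel per probe set and a vertical axis of signal units spaced in log2 steps. Points are single arrays (3 per group, wt standing for wild type) and the line in each group is the geometric mean; in the panel of Mf all 9 mutant arrays lie below all 6 wild type arrays.

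Mlc1 encodes the essential light chain of muscle myosin. It read 42376, 77753 and 55293 signal units on the PBS arrays of wild type and 54256, 78907 and 63481 on its E. coli arrays. The Relish mutant arrays gave 48779.6, 56379 and 50419, the Dif arrays 52059.8, 45949.5 and 45088, and the dorsal arrays 56057, 55855 and 40457. The 5 groups overlapped widely, except that all 3 Dif arrays lay below all 3 wild type E. coli arrays. That difference was -0.44 (SE 0.24, adjusted p = 0.386). Of all tested probe sets, 8.05% were lower in this comparison without overlap.

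Mlc2 encodes the regulatory light chain. It read 60788, 105803 and 93456 signal units on the PBS arrays of wild type and 94382, 150274 and 114348 on its E. coli arrays. Among the mutants, Relish gave 130278, 162628 and 141967, Dif 164279.9, 145974 and 131304, and dorsal 122416, 119176 and 138849.5. Every mutant array read above all 3 PBS arrays, PBS replicate 1 being the lowest of all, while the wild type E. coli arrays overlapped with every other group. Relative to PBS the Relish mutant differed by 0.77 (SE 0.25, adjusted p = 0.179), the Dif mutant by 0.80 (SE 0.25, adjusted p = 0.109) and the dorsal mutant by 0.58 (SE 0.25, adjusted p = 0.268), none of them called. Of all tested probe sets, 12.7% (Relish), 16% (Dif) and 14.5% (dorsal) lay above PBS without overlap.

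Act79B encodes an actin of muscle thin filaments. Its probe set carries the suffix that Affymetrix gave to probes shared within a gene family, so its signal may include other actins. It read 10285, 7226 and 10339 signal units on the PBS arrays of wild type and 13954, 11207 and 15754 on its E. coli arrays. The mutants gave 9391, 14644 and 12213 in the Relish, 15475, 15683 and 18460.1 in the Dif, and 9146, 6044 and 9800.2 in the dorsal mutant. The Dif arrays lay above all dorsal arrays and all PBS arrays, and the dorsal arrays lay below all wild type E. coli arrays. Group means were 16539 ± 1667 in the Dif mutant and 8330.1 ± 2007 in the dorsal mutant (SD, n = 3). Between these mutants the difference was 1.01 (SE 0.23, adjusted p = 0.0182), the widest for this gene. Without Dif replicate 2, Dif replicate 3 or dorsal replicate 2 the call was lost, at 1.04 (adjusted p = 0.0562), 0.93 (adjusted p = 0.0685) and 0.80 (adjusted p = 0.0898).

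The other differences of Act79B were not called. The dorsal mutant differed from wild type with E. coli by -0.72 (SE 0.23, adjusted p = 0.111), a value called at -0.85 (adjusted p = 0.0258) when arrays were weighted by their quality. The Dif mutant differed from wild type with PBS by 0.84 (SE 0.23, adjusted p = 0.0658), which was called without dorsal replicate 3 (adjusted p = 0.0441), with quantile normalization (0.99, adjusted p = 0.0433), with array weights (0.80, adjusted p = 0.0489) and with the replicate block (adjusted p = 0.0498).

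The gene up (upheld) encodes troponin T, which ties the troponin complex to tropomyosin. Its bright probe set read 22654, 22982.5 and 22384 signal units on the PBS arrays of wild type and 26161, 25048 and 27338 on its E. coli arrays. The Relish mutant arrays gave 16457, 28874 and 16717, the Dif arrays 21859.6, 20665 and 25421, and the dorsal arrays 14136, 11123 and 17130.4. The wild type groups were narrow and did not overlap with each other, and the dorsal arrays lay below every array of both wild type groups and of the Dif mutant. Relish replicate 2 stood apart from the other arrays of its group, near the wild type E. coli level. The dorsal mutant was lower than wild type with E. coli by a log2 difference of -0.91 (SE 0.22, adjusted p = 0.0327). Without dorsal replicate 1 or 2, or without any one of the 3 wild type E. coli arrays, this call was lost, with values from -0.94 to -0.75 and adjusted p from 0.0631 to 0.141. Compared with PBS the dorsal value was -0.70 (SE 0.22, adjusted p = 0.112), called with array weights (-0.78, adjusted p = 0.0211). The Dif minus dorsal difference of up was 0.69 (SE 0.22, adjusted p = 0.0806). It was called with quantile normalization (0.76, adjusted p = 0.0484), with array weights (0.79, adjusted p = 0.035), without dorsal replicate 3 (0.84, adjusted p = 0.0453) and without Relish replicate 2 (adjusted p = 0.0432).

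The weak probe set of up did not follow the bright one. It read 174, 629.6 and 162 signal units on the PBS arrays of wild type and 253, 77.0 and 96.9 on its E. coli arrays. Among the mutants, Relish gave 578, 628 and 704, Dif 186, 401 and 436, and dorsal 348, 207 and 155. The Relish arrays lay above all wild type E. coli arrays, but not above PBS replicate 2. Between these groups the difference was 1.77 (SE 0.44, adjusted p = 0.0474), where the bright probe set of up gave -0.39 (SE 0.22, adjusted p = 0.487). The call of the weak probe set held without PBS replicate 2, Dif replicate 1, dorsal replicate 3 or wild type E. coli replicate 1, and was lost without any of the other 11 arrays, at values from 1.56 to 1.83 and adjusted p from 0.0502 to 0.179.

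Tm2 encodes a muscle tropomyosin. It read 18899.6, 15918 and 21252 signal units on the PBS arrays of wild type and 21695, 25271 and 22665 on its E. coli arrays. The mutants gave 12829, 24289.6 and 16359 in the Relish, 19472, 17422 and 20888 in the Dif, and 21388.5, 17962 and 12461 in the dorsal mutant. The wild type E. coli arrays were above all PBS, Dif and dorsal arrays, and the Relish mutant spanned nearly the whole range. None of these differences was called: 0.32 for E. coli over PBS (SE 0.24), -0.27 for Dif (SE 0.24, adjusted p = 0.627) and -0.46 for dorsal (SE 0.24, adjusted p = 0.379) relative to wild type with E. coli.

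Mf encodes myofilin, a thick filament protein of insects, and was the only one of the 10 member probe sets whose wild type and mutant arrays did not overlap. It read 17131, 25728 and 16439 signal units on the PBS arrays of wild type and 16078, 25964 and 25524 on its E. coli arrays. The Relish mutant arrays gave 8563, 9834 and 9712, the Dif arrays 10477, 7794 and 12527, and the dorsal arrays 14669.6, 13507 and 15345. All 9 mutant arrays lay below all 6 wild type arrays, and the Relish and Dif arrays lay below all dorsal arrays as well. Of the 11427 tested probe sets, 50 (0.438%) had all mutant arrays below all wild type arrays, and 62 (0.543%) had them all above. Group means were 19766 ± 5175 with PBS and 22522 ± 5585 with E. coli in wild type, 9369.8 ± 701 in the Relish mutant, 10266 ± 2374 in the Dif mutant and 14507 ± 929 in the dorsal mutant (SD, n = 3).

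Relative to wild type with E. coli, Mf fell by 1.23 in the Relish mutant (SE 0.24, adjusted p = 0.00802) and by 1.12 in the Dif mutant (SE 0.24, adjusted p = 0.0142). Leaving out replicate 2 or 3 of wild type with E. coli ended the first call (-1.11, adjusted p = 0.051, and -1.12, adjusted p = 0.0603). The same arrays ended the second (adjusted p = 0.0734 and 0.0776), as did Dif replicate 2 (-0.94, adjusted p = 0.0825). In the dorsal mutant Mf differed by -0.60 (SE 0.24, adjusted p = 0.201), which was not called. Direct comparison of the mutants gave -0.63 for Relish against dorsal (adjusted p = 0.175), -0.52 for Dif against dorsal (adjusted p = 0.218) and -0.11 for Relish against Dif, so the mutants were not separated by the test.

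Against PBS, Mf was also called, at -1.04 in the Relish mutant (SE 0.24, adjusted p = 0.0353) and -0.94 in the Dif mutant (SE 0.24, adjusted p = 0.0467), and the dorsal mutant differed by -0.42 (adjusted p = 0.423). The Relish call was lost without any one of the 6 arrays compared, with values from -1.16 to -0.84 and adjusted p from 0.0557 to 0.17. The Dif call of Mf was also lost with quantile normalization (-0.81, adjusted p = 0.0683). Of the repeats without 1 array, it held only without Dif replicate 3, dorsal replicate 3 or wild type E. coli replicate 1, and without each other array the values lay between -1.05 and -0.73 with adjusted p from 0.0541 to 0.182. In wild type, E. coli and PBS differed by 0.19 for Mf (SE 0.24), within the spread of both groups.

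Zasp52 encodes a PDZ and LIM domain protein of the Z-disc and is read by 3 probe sets. The brightest, 147264_at, read 2071, 2037 and 2431 signal units on the PBS arrays of wild type and 2129, 3156 and 3566 on its E. coli arrays. Among the mutants, Relish gave 1692, 2333 and 3356, Dif 2835, 3328 and 2965, and dorsal 1151, 972 and 2138. Dorsal replicates 1 and 2 were the lowest arrays of all, while dorsal replicate 3 fell among the wild type arrays. The dorsal mutant was lower than wild type with E. coli by a log2 difference of -1.06 (SE 0.29, adjusted p = 0.0488) and lower than the Dif mutant, the Dif minus dorsal difference being 1.13 (SE 0.29, adjusted p = 0.0286). The first call held only without dorsal replicate 3, Relish replicate 1, Relish replicate 3 or wild type E. coli replicate 1, and otherwise lay between -1.06 and -0.84 with adjusted p from 0.0548 to 0.221. The second was lost without Dif replicate 2 or 3 or dorsal replicate 1 or 2, at 0.92 to 1.15 and adjusted p from 0.0686 to 0.119. Without dorsal replicate 3 the Relish minus dorsal difference of this probe set of Zasp52 was called (1.11, adjusted p = 0.0359), and with array weights the dorsal minus PBS difference was (-0.89, adjusted p = 0.0346).

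The other probe sets of Zasp52 had the same order of the Dif and dorsal mutants. Probe set 147262_at read 1718, 1270.5 and 1367.5 signal units on the PBS arrays of wild type and 1720.3, 1496 and 1686 on its E. coli arrays. Signals were 1369, 1589 and 1829.9 in the Relish, 2258, 2511 and 2041 in the Dif, and 1024, 1243 and 1262 in the dorsal mutant. Every Dif array was above, and every dorsal array below, the arrays of all other groups. The Dif minus dorsal difference was 0.90 (SE 0.20, adjusted p = 0.0154), lost without Dif replicate 2 (0.83, adjusted p = 0.0702) or dorsal replicate 1 (0.81, adjusted p = 0.0693). Relative to wild type with E. coli this probe set of Zasp52 gave 0.45 in the Dif mutant (adjusted p = 0.278) and -0.45 in the dorsal mutant (adjusted p = 0.277), neither called.

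Probe set 147263_at of Zasp52 read 2089.7, 2801 and 1860.4 signal units on the PBS arrays of wild type and 2274, 2849 and 1926 on its E. coli arrays. The Relish mutant arrays gave 1916, 1899 and 1553, the Dif arrays 3486, 3067 and 1904, and the dorsal arrays 1387, 1929 and 1949. Dif replicate 3 fell among the dorsal arrays here. No comparison called it, and its Dif minus dorsal difference was 0.63 (SE 0.25, adjusted p = 0.153).

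Counted over the 10 member probe sets, bacteria in wild type gave no call, against 18 of 11427 tested probe sets (0.158%) called in that comparison, and 1 member had an unadjusted p under 0.05, Act79B, as had 4.73% of all. All 7 genes, each read by its brightest probe set, were above 0 in this comparison, from 0.19 for Mf to 0.56 for Act79B, with a median of 0.32. The weak probe set of up went the other way, at -0.75 (SE 0.44), and was not called. Over all 10 member probe sets the median was 0.20. The median of all tested probe sets was 0.00, and 50.1% of them were above 0. The arrays of the wild type groups did not overlap for 3 members, Act79B, Tm2 and the bright probe set of up, each higher with E. coli, beside 12% of all tested probe sets without overlap and 6.39% higher without overlap.

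Relative to wild type with E. coli, the Relish mutant had 2 member calls, Mf lower and the weak probe set of up higher, where 1.88% of all tested probe sets were called (0.744% rising, 1.14% falling), and its member median was -0.30 beside 0.09 for all. The Dif mutant had 1, Mf, where 2.68% were called (1.54% lower), with medians of 0.15 and 0.11. The dorsal mutant had 2, both lower, the bright probe set of up and the brightest of Zasp52, where 3.52% were called (1.88% lower), with medians of -0.45 and 0.10. These member medians count all 10 probe sets, 3 of them of Zasp52. Over the 7 genes, each read by its brightest probe set, the medians were -0.32 in the Relish, -0.21 in the Dif and -0.60 in the dorsal mutant. Of the 7 genes, 1, 3 and 1 were above 0. In the dorsal mutant 8 of 10 member probe sets were below wild type with E. coli, and for 5 of them the arrays did not overlap, all 5 lower, against 21.7% of all tested probe sets without overlap and 8.45% lower without overlap. Those 5 were Act79B, the bright probe set of up, Tm2, Mf and probe set 147262_at of Zasp52. In the Relish mutant 3 members did not overlap with wild type with E. coli, and in the Dif mutant 4. Over all tested probe sets the shares were 19.4% and 22.4%.

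Relative to wild type with PBS, 1 member was called in the Relish mutant (1.14% of all tested probe sets, 0.639% lower), 1 in the Dif mutant (2.14%, 1.27% lower) and none in the dorsal mutant (2.97%), both calls being Mf, lower in the mutant. These comparisons share their mutant arrays with those against wild type with E. coli and are not separate evidence. In the dorsal mutant against PBS, 3 members had an unadjusted p under 0.05, as had 15.3% of all tested probe sets. Arrays did not overlap with PBS for 2 members in the Relish, 5 in the Dif and 4 in the dorsal mutant. Over all tested probe sets the shares were 20.7%, 25% and 22.9%. The medians of the 10 member probe sets were 0.01 in the Relish mutant, 0.25 in the Dif mutant and -0.24 in the dorsal mutant, and those of all tested probe sets were 0.09, 0.13 and 0.12. Over the 7 genes, each read by its brightest probe set, the medians were -0.11, 0.05 and -0.175.

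Between mutants, Relish against Dif called no member (1.15% of all tested probe sets), and 2 members had an unadjusted p under 0.05, as had 12.9% of all. Relish against dorsal also called none (3.05%), and 5 members had an unadjusted p under 0.05, as had 16.6% of all. Dif against dorsal called 3, Act79B and 2 probe sets of Zasp52, all higher in the Dif mutant, where 5.18% of all tested probe sets were called (2.34% higher). The arrays of these mutants did not overlap for 5 members, 4 of them higher in the Dif mutant and Mf lower, against 24.4% of all tested probe sets, with 12.5% of all higher.

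**Figure D2:**
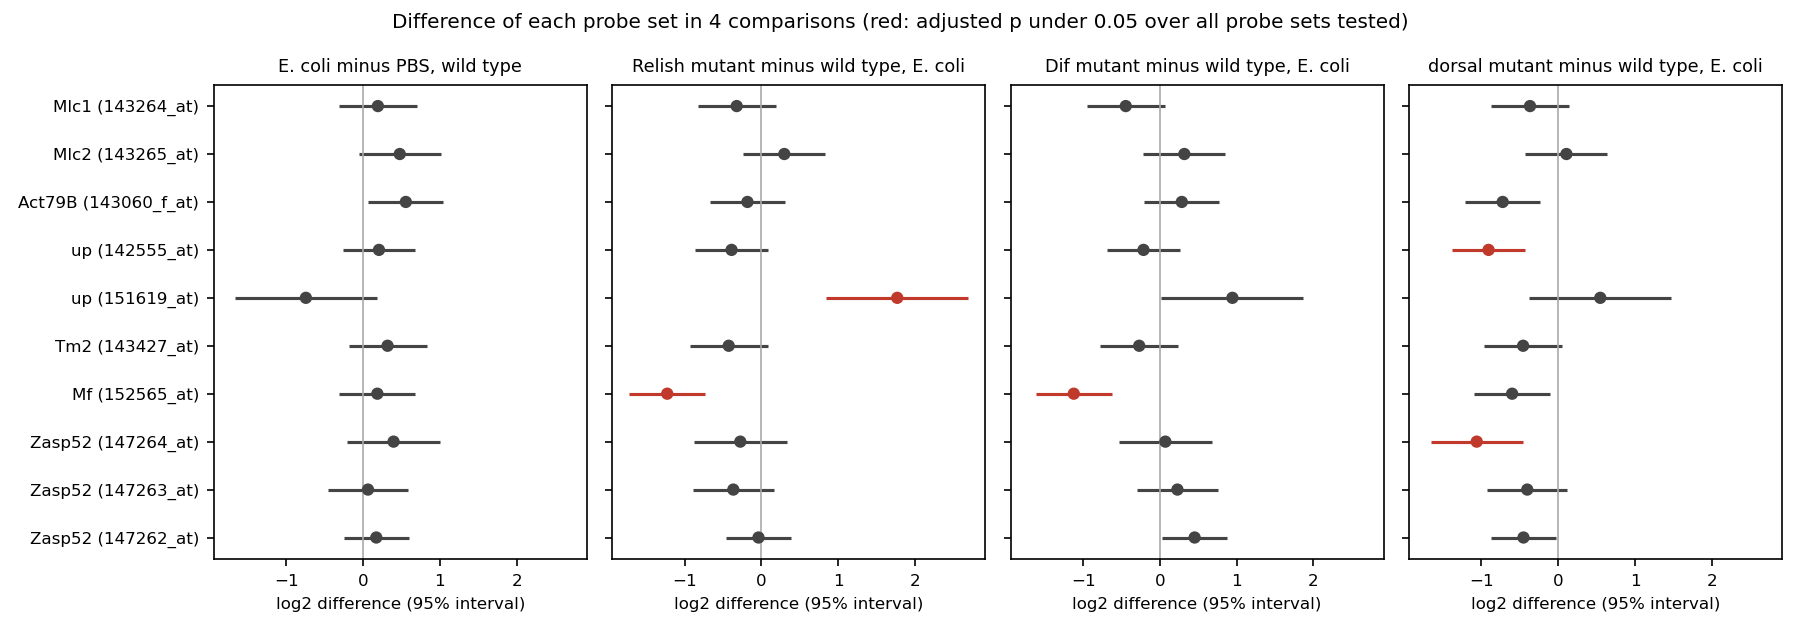
Log2 difference of each member probe set, with its 95% interval from the fit, in 4 comparisons: E. coli minus PBS in wild type, and each mutant minus wild type with E. coli. Zero marks equal levels, and the intervals are not adjusted for the number of probe sets tested. Those of Mf lie below zero in the Relish, Dif and dorsal mutants relative to wild type with E. coli, though the dorsal difference was not called. Those of Mlc1 and Mlc2 include zero there.

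The 7 genes did not form 1 block. Over the 15 arrays the 21 pairs of genes had a median Pearson r of 0.24, with 16 pairs above 0, and after group means were taken out the median was 0.31, with 15 pairs above 0. The actin gene Act79B and the troponin T gene up correlated at 0.68 over all arrays and 0.71 within groups. The light chain genes Mlc1 and Mlc2 correlated at 0.12 over all arrays and at 0.74 within groups. These are descriptions of 15 points that share array, RNA extract and scaling. Averaged over the genes, each centred on its own mean, the 7 genes stood at 0.29 in wild type with E. coli, 0.10 in the Dif mutant, -0.04 in wild type with PBS, -0.07 in the Relish mutant and -0.28 in the dorsal mutant. The arrays ranged, in this order, from 0.08 to 0.41, 0.01 to 0.17, -0.175 to 0.04, -0.335 to 0.17 and -0.44 to -0.18. Each group thus overlapped with the next.

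Set against the mean of the other 6 genes on the same array, Mf divided the mutants. Its relative log2 level was -0.82 to -0.46 on the Relish arrays and -1.01 to -0.41 on the Dif arrays. On the dorsal arrays it was 0.30 to 0.43, on the wild type E. coli arrays 0.11 to 0.53, and on the PBS arrays 0.23 to 0.95. The Relish and Dif arrays thus lay below all others. The dorsal arrays lay within the wild type range on this scale, though their Mf signals were below those of all wild type arrays. Mlc2 was higher in all 3 mutants on this scale, dorsal included, with relative levels from -0.96 to -0.12 in both wild type groups together and from -0.07 to 0.51 on the mutant arrays. Its own log2 differences from wild type with E. coli were 0.30 in the Relish, 0.32 in the Dif and 0.11 in the dorsal mutant, none called. A relative level also rises when the other 6 genes fall. Act79B was highest in the Dif mutant by this measure, at 0.37 to 0.60, and -0.55 to -0.05 in the dorsal mutant.

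**Figure D3:**
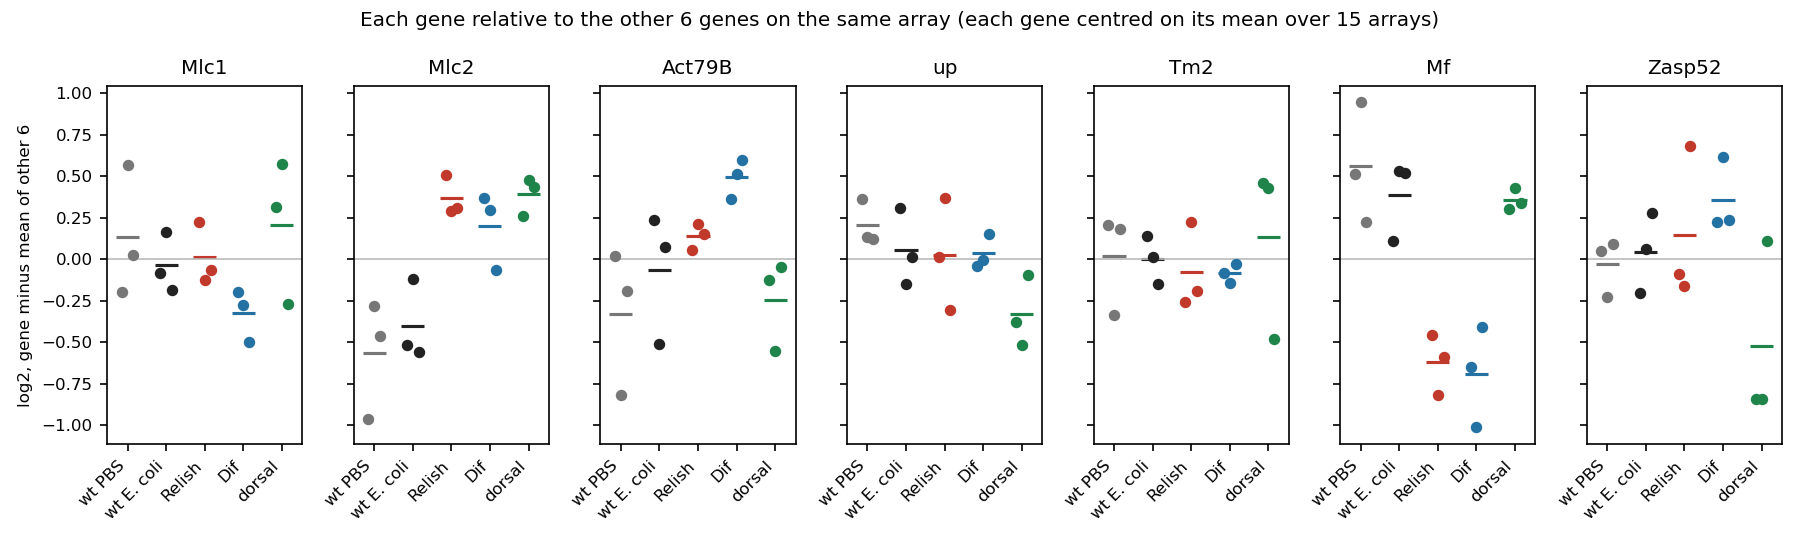
Log2 level of each of the 7 genes minus the mean of the other 6 genes on the same array, each gene centred on its own mean over the 15 arrays. Points are arrays and bars are group means; Mf lies below zero on every Relish and Dif array and above zero on every other array.

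Among the other sarcomere genes, a list of further thin filament, thick filament and Z-disc components with 23 tested probe sets of 16 genes, calls went to single genes. Bacteria in wild type called none of the 23 (0.158% of all tested probe sets). Relative to wild type with E. coli, 2 were lower in the Relish mutant and 3 lower in the Dif mutant, where 1.14% and 1.54% of all tested probe sets were called lower. In the dorsal mutant 1 was higher and 1 lower, where 3.52% of all were called. The list medians of these comparisons were -0.08, 0.00 and -0.09, beside 0.09, 0.11 and 0.10 over all tested probe sets. Besides Strn-Mlck and tn, the Dif calls held the Z-disc gene Zasp66 (-0.86, SE 0.21, adjusted p = 0.0333), which the naming rule did not take and which is named after its value was seen. Against PBS the counts were 1 lower in the Relish mutant (1.14% of all called), 2 higher and 1 lower in the Dif mutant (2.14%), and 1 higher in the dorsal mutant (2.97%). Both lower counts relative to wild type with E. coli in the Relish and Dif mutants include probe set 143736_at of Strn-Mlck. It was also the lower call of the Relish mutant against PBS. This probe set passed the signal filter through its wild type arrays, so its calls are no support for the counts.

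Strn-Mlck, which encodes titin-like proteins with a myosin light chain kinase domain, was lower at probe set 143736_at. Its signal was 571 ± 155 in wild type with E. coli and 502 ± 122 with PBS, against 95.8 ± 42.8 in the Relish mutant, 138 ± 60.9 in the Dif mutant and 189 ± 103 in the dorsal mutant (SD, n = 3). Only 2 of the 9 mutant arrays reached the signal of 160 set for testing, so this probe set entered the tests through its wild type arrays, and its differences are given as a description only. The differences from wild type with E. coli were -1.89 in the Relish mutant (SE 0.37, adjusted p = 0.00921), -1.59 in the Dif mutant (SE 0.37, adjusted p = 0.0259) and -1.32 in the dorsal mutant (SE 0.37, adjusted p = 0.058). The Relish call of Strn-Mlck ended when replicate 2 of wild type with E. coli was left out (-1.71, adjusted p = 0.0555), and without that array, wild type E. coli replicate 3 or Dif replicate 2 or 3 the Dif call was lost (-1.61 to -1.39, adjusted p from 0.0675 to 0.11). The other probe set of Strn-Mlck, 152599_at, gave -0.83 (adjusted p = 0.138), -0.11 (adjusted p = 0.872) and 0.11 (adjusted p = 0.897).

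The gene tn (thin), whose TRIM and NHL domain protein keeps larval myofibrils intact, read lower on all 9 mutant arrays than on all 6 wild type arrays. It read 2646 ± 352 in wild type with E. coli and 2338 ± 621 with PBS, against 1305 ± 189 in the Relish, 1198 ± 176 in the Dif and 1239 ± 394 in the dorsal mutant (SD, n = 3). The differences of tn from wild type with E. coli were -0.98 (adjusted p = 0.0495), -1.09 (adjusted p = 0.0212) and -1.08 (adjusted p = 0.0211), each with an SE of 0.25. All 3 calls of tn were lost without replicate 2 or replicate 3 of wild type with E. coli. The Relish call held only without PBS replicate 2 or dorsal replicate 2 or 3, and otherwise lay between -1.08 and -0.88 with adjusted p from 0.0529 to 0.205. The Dif call of tn was also lost without Dif replicate 1 or 2 (adjusted p = 0.0601 and 0.0859), and the dorsal call without dorsal replicate 1 or 2 (adjusted p = 0.0766 and 0.0917).

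Fhos, a formin that assembles thin filaments, was higher in the dorsal mutant. It read 1879 ± 611 there, 556 ± 195 in wild type with E. coli and 579 ± 167 with PBS, with Relish and Dif means of 989 ± 273 and 805 ± 139 (SD, n = 3). The dorsal difference from wild type with E. coli was 1.62 (SE 0.31, adjusted p = 0.00612), and it was called without each of the 15 arrays in turn. The weak probe set of Fhos, 154230_at, gave 0.33 there (SE 0.45, adjusted p = 0.781). Against PBS the dorsal difference of the brighter probe set of Fhos was 1.55 (SE 0.31, adjusted p = 0.0096). That call was lost without PBS replicate 2 or 3 or dorsal replicate 1 (adjusted p from 0.0519 to 0.0563). Leaving out 1 array keeps any other array of the same title number.

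Further calls of the list lay outside the comparisons with wild type given E. coli. TpnC73F, a troponin C, and Act87E, another muscle actin read by a family-shared probe set, were higher in the Dif mutant than with PBS, by 0.95 (adjusted p = 0.0418) and 0.99 (adjusted p = 0.0212). The gene sals, which lengthens thin filaments, was lower in the Relish and Dif mutants than in the dorsal mutant at its brighter probe set, by log2 differences of -1.29 (adjusted p = 0.0256) and -1.22 (adjusted p = 0.0212). Leaving out any of the 6 arrays compared, dorsal replicate 2 or wild type E. coli replicate 2 ended the call of TpnC73F (0.86 to 1.08, adjusted p from 0.0509 to 0.138). The call of Act87E ended without PBS replicate 2 or 3 or any Dif array (0.91 to 1.02, adjusted p from 0.0551 to 0.083). For sals, any dorsal array or Relish replicate 2 or 3 ended the first call (-1.38 to -1.11, adjusted p from 0.0502 to 0.0814), and Dif replicate 2 or 3 or dorsal replicate 1 or 3 the second (-1.30 to -1.03, adjusted p from 0.053 to 0.0985).

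Genes of excitation, calcium handling and energy supply in muscle formed a list of 12 tested probe sets of 8 genes. Bacteria in wild type called none of them, where 0.158% of all tested probe sets were called. The Relish mutant relative to wild type with E. coli also called none (1.88% of all). In the Dif mutant 1 was higher (2.68% of all tested probe sets called), and in the dorsal mutant 1 was higher and 1 lower (3.52%). RyR, the calcium release channel of the sarcoplasmic reticulum, fell by 2.18 in the dorsal mutant (SE 0.40, adjusted p = 0.00446), from 1311 ± 293 in wild type with E. coli to 261 ± 179 (SD, n = 3), and stayed called without each of the 15 arrays. Sclp was higher in the dorsal mutant by 1.74 (SE 0.47, adjusted p = 0.0484), and stayed called only without Dif replicate 1 or 2, Relish replicate 2 or 3 or wild type E. coli replicate 1 (otherwise 1.29 to 1.90, adjusted p from 0.0529 to 0.248). Ca-beta, a subunit of voltage-gated calcium channels, was higher in the Dif mutant by 0.89 (SE 0.23, adjusted p = 0.048), and stayed called only without dorsal replicate 1 or 3 (otherwise 0.75 to 0.97, adjusted p from 0.0541 to 0.165). Its other probe sets gave -0.94 and 0.48, neither called. Against PBS the dorsal difference of RyR was -1.51 (SE 0.40, adjusted p = 0.0467). That call was lost without PBS replicate 2 or 3 (adjusted p = 0.167 and 0.205) or dorsal replicate 3 (-0.98, adjusted p = 0.181), among other arrays.

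Muscle regulators and attachment genes, 14 tested probe sets of 12 genes, gave 1 call each in the Relish and Dif mutants relative to wild type with E. coli and none for the dorsal mutant or for bacteria in wild type, where 1.88%, 2.68%, 3.52% and 0.158% of all tested probe sets were called. The integrin subunit gene mys was lower in the Relish mutant by a log2 difference of -1.36 (SE 0.30, adjusted p = 0.0218), lost without Relish replicate 2 or 3 or wild type E. coli replicate 1 or 3 (-1.33 to -1.22, adjusted p from 0.0867 to 0.0931). The talin gene rhea, whose protein ties integrins to actin, was lower in the Dif mutant by a log2 difference of -1.11 (SE 0.24, adjusted p = 0.0179) at probe set 151754_at, lost without Dif replicate 2 or wild type E. coli replicate 1 or 3 (-1.11 to -0.81, adjusted p from 0.0665 to 0.0848). Its other probe set gave -0.20 (adjusted p = 0.762). Cytoskeletal genes of non-muscle cells, 5 probe sets, had no call in any of the 10 comparisons, where 0.158% to 5.18% of all tested probe sets were called. With 5 probe sets this is no contrast with the muscle lists.

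**Figure D4:**
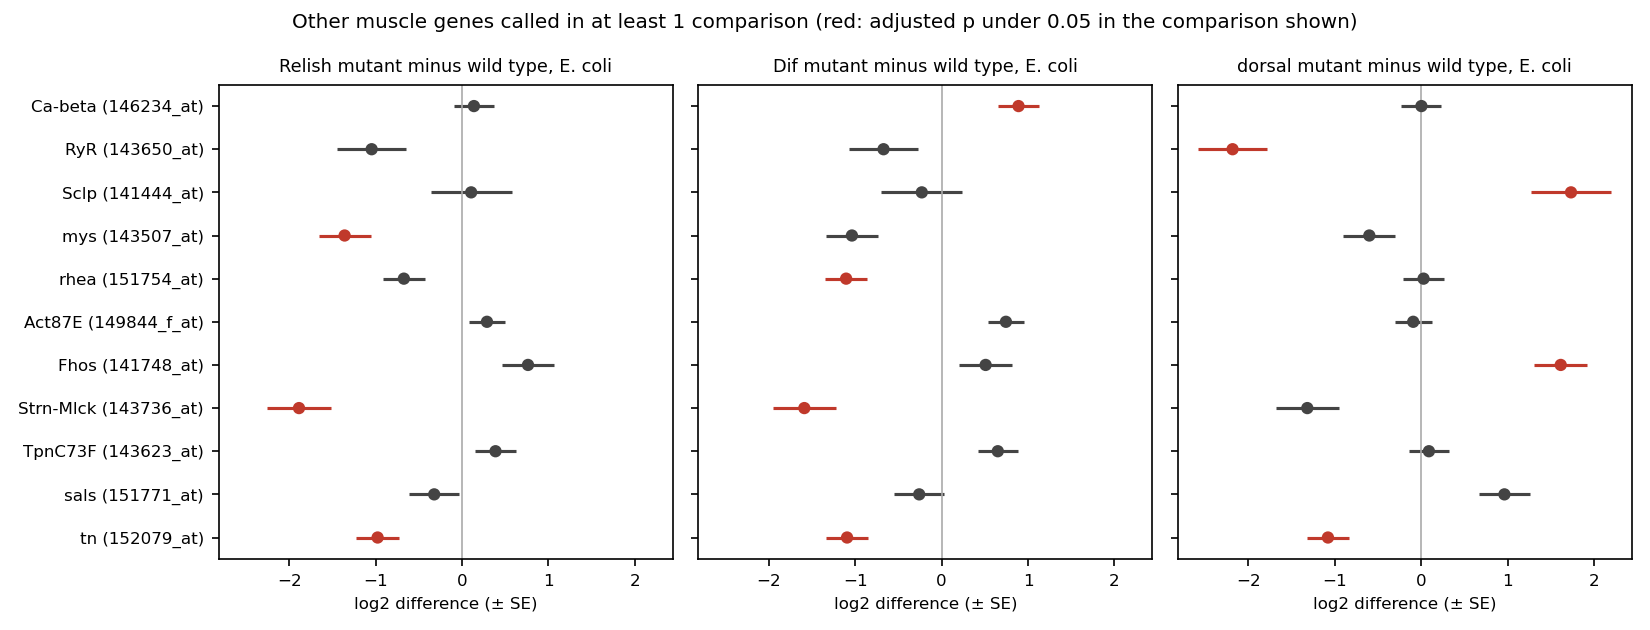
Log2 differences of the named genes of the other muscle lists in the mutants relative to wild type with E. coli, with bars of ± 1 SE. The bars of Strn-Mlck (143736_at) and tn lie below zero in the Relish, Dif and dorsal mutants, those of RyR reach furthest below zero in the dorsal mutant, and those of Fhos (141748_at) furthest above zero among the sarcomere genes.

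Some markers of other tissues differed between groups, as did 1 ratio of RNA quality on the Dif arrays, and their part in the results on muscle genes was not tested. The summed signal of 8 salivary glue probe sets was 322089 to 585713 on the dorsal arrays, 45411 to 413834 on the Relish and 66198 to 385287 on the Dif arrays, 17878 to 252565 in wild type with E. coli and 77259 to 190206 with PBS. Sgs4, a glue gene, read 13.0 to 57.9 on the wild type arrays and 615 to 70675 on the mutant arrays. The 8 glue probe sets did not all follow Sgs4. Their median log2 difference from PBS was -0.77 in the Relish mutant, with 5 below 0, 0.02 in the Dif mutant and 1.72 in the dorsal mutant. Relative to wild type with E. coli the medians were 0.59, 1.365 and 3.20. The sum of 7 hemocyte probe sets was 27607 to 34091 on the Relish arrays and 6844 to 15994 on all others. A sum weighs the brightest probe sets most, and the 7 did not all follow it. In the Relish mutant their median log2 difference was 0.805 from wild type with E. coli (1 below 0) and 0.34 from PBS (2 below 0). It was 0.22 from the Dif mutant (2 below 0) and -0.11 from the dorsal mutant (4 below 0). The sum of 9 gut probe sets was 592490 to 761034 on the Relish arrays and 312955 to 618577 on the others. The sum of 5 fat body probe sets was 252698 to 372620 on the dorsal arrays and 138106 to 199182 on the wild type arrays, and the Relish and Dif arrays overlapped with both. Sums of 4 neuronal and 3 cuticle probe sets overlapped between wild type with E. coli and each mutant.

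The 3'/5' signal ratio of the array's actin control, which rises as RNA is degraded or incompletely copied, was 1.65 to 1.99 on the Dif arrays, 1.83 to 4.95 on the dorsal, 1.69 to 5.09 on the Relish, 2.36 to 5.28 on the wild type E. coli and 2.51 to 6.27 on the PBS arrays. Its log2 value correlated with Act79B at -0.70 over the 15 arrays and at -0.75 within groups, and with Mlc1 at 0.66 and 0.65. For up the values were -0.25 and -0.53, for Mf 0.55 and 0.21, and for the brightest probe set of Zasp52 -0.45 and -0.50. All 3 arrays of the Dif mutant, where Act79B had its highest mean, had actin ratios below those of all wild type arrays. The other controls did not separate them: the GAPDH ratio was 3.31 to 4.49 on the Dif arrays and 2.64 to 5.14 on the wild type arrays, and the eIF4a ratio 3.96 to 5.40 and 4.49 to 7.22. Relish replicate 1 stood apart with an eIF4a ratio of 14.8. Whether RNA quality plays a part in the Dif minus dorsal difference of Act79B was not tested.

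The genes most like the mean of the 7 members over the 15 arrays, among 9183 other genes with a single-symbol probe set, were CG8837 (r = 0.84, and 0.75 within groups), Faa (0.82 and 0.55), Sc2 (0.81 and 0.68), Pax (0.78 and 0.67), SERCA (0.78 and 0.63), CG42562 (0.78 and 0.03), EbpIII (0.77 and 0.39), muc (0.76 and 0.71), slf (0.75 and 0.58) and RpLP0 (0.75 and 0.61). SERCA, the calcium pump of the sarcoplasmic reticulum, was the only gene among these 10 that the muscle lists held. The likeness of CG42562 came from the group means, since its within-group r was near 0. These correlations describe 15 arrays that share array, extract and scaling and say nothing of shared function.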

How the data were processed

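The deposited values are intensities, 1 signal per probe set, which the authors made with Affymetrix Microarray Suite (MAS) version 5.0 and global scaling, per the labels. Labelling started from about 25 micrograms of total RNA, per the labels. Detection calls were not used, sequencing depth does not apply, and the number of arrays limits the precision. The table held 14010 probe sets, 44 of them controls. Symbols came from the platform annotation: 12443 probe sets had 1 symbol, 327 several and 1196 none. No coordinates are printed, because the sources used here name no build for the array.

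Signals deposited by the authors were converted to log2(signal + 80), which understates changes of weak probe sets. Probe sets with at least 160 on at least 3 arrays were kept, which removed 2539. A mean per group was fitted over all 15 arrays with limma 3.58.1 in R 4.3.3 (lmFit, eBayes with a variance trend, 10 residual degrees of freedom), two-sided, with Benjamini-Hochberg adjustment over 11427 probe sets, and the procedure was tested on simulated data. Adjusted p-values come from this fit unless the sentence names a left-out array or another alternative, whose repeat of the fit then gives them.

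The members and lists were chosen with earlier results of these data known. All member probe sets are named. List genes are named where called in at least 1 comparison, at most 6 per muscle list, with the largest differences, and the 10 genes of highest r with the member mean are named. Replicate numbers do not pair the arrays: of 30 same-numbered pairs, 7 had deviations correlating above 0.1 (range -0.106 to 0.34). Alternatives were pseudocounts of 20 and 320, no filter and a filter at 320, quantile normalization, array weights, no variance trend, only the compared groups, a replicate block, averaging of arrays with the same title number, and leaving out each array.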

Additional observations from a re-analysis of the deposited data

How the results depend on the processing

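Over 100 member differences and 25 alternatives each, 2350 of 2500 values kept direction and side of the threshold, 93 lost and 12 gained a call, and 45 changed sign without a call under either setting; no called value changed sign. Member calls were 1 in the Relish mutant relative to wild type with E. coli (2 in the report) with a pseudocount of 20, no filter, quantile normalization, no variance trend or the replicate block, and 0 with same-titled arrays averaged. The Dif count (1) was 0 with no variance trend, only the compared groups, or averaging. The dorsal count (2) was 3 with array weights, which added Act79B, 1 with a pseudocount of 20, no filter or quantile normalization, and 0 with no variance trend, only the compared groups, or averaging. Against PBS, the Relish count (1) was 0 with no variance trend or averaging. The Dif count (1) was 0 with no filter, no variance trend, only the compared groups or averaging, and 2 with array weights or the replicate block. With quantile normalization it stayed 1, but Act79B (adjusted p = 0.0433) took the place of Mf (adjusted p = 0.0683). The dorsal count (0) was 2 with array weights. Dif against dorsal (3) gave 4 with quantile normalization or array weights, 1 with no variance trend and 0 with only the compared groups or averaging. Without 1 array at a time, the counts relative to wild type with E. coli ranged from 0 to 2 for Relish, 0 to 1 for Dif and 0 to 2 for dorsal, those against PBS from 0 to 1, 0 to 2 and 0 to 0, Dif against dorsal from 0 to 4, Relish against dorsal from 0 to 1, and Relish against Dif and E. coli against PBS from 0 to 0. Averaging and fits of only the compared groups use fewer arrays for the spread; the cause of the other changes was not tested. With the replicate block, the Dif difference of Act79B from PBS had an adjusted p of 0.0498, which adds the second call there; the numbers are not a pairing.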
